A study of Mus musculus with 4 samples.

Results

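The genes described here encode the kinases of the mitogen-activated protein (MAP) kinase cascades and the dual-specificity phosphatases (DUSPs), 54 genes of the 13840 that had a probe with a single gene symbol. They were taken by name: every symbol that begins with Map, Map2, Map3 or Map4 followed by k and a digit, or with Dusp and a digit. For a gene with several probes, the one with the highest mean signal was used. The genes fall into tiers by their place in the cascade: 3 MAP4K, 14 MAP3K, 5 MAP2K and 8 MAPK genes, 8 MAP kinase phosphatases (MKPs), 10 atypical DUSPs and 6 binding partners whose symbols share the stem. RefSeq lists 74 symbols of this form, so part of the family was not analysed here, including Mapk8 and Mapk9 (JNK1 and JNK2), Map2k3, Map2k7, Dusp2 and Dusp5.

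A MAP kinase cascade passes a signal through kinases that phosphorylate each other in turn. A MAP4K or a small GTPase activates a MAP3K, which activates a MAP2K, which activates the MAP kinase by phosphorylating a threonine and a tyrosine in its activation loop. The MKPs remove both phosphates and so end the signal; some are selective for ERK, others for JNK and p38. In marrow these cascades carry signals from cytokine receptors, stress and innate immune receptors in stem cells, progenitors and maturing myeloid cells.

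RNA was measured in the lineage-negative fraction of mouse marrow, left on magnetic columns after removal of cells that bear markers of mature blood lineages. The wild-type group was C57BL/6. The other group was null for Mtg16 (symbol Cbfa2t3), a corepressor of the ETO family, on a background of 4 backcross generations into C57BL/6. All mice were females aged 8 to 12 weeks, and each array held RNA pooled from 4 mice. There were 2 arrays per genotype, and array lot 1 and array lot 2 each held 1 array of each genotype. The labels do not say whether the arrays of a genotype came from separate pools, so p-values measure only the spread between these 4 arrays, which may be technical.

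Every array had a median of 470 signal units, because the deposited values share a common distribution. The probe for Cbfa2t3 read 80854 and 100256 units in wild type and 95520 and 118572 in the null arrays, a log2 difference of 0.24 in each lot. Whether that probe lies inside the deletion was not given in the sources used here, so its signal checks no label. Among markers of the fraction, Kit, the stem cell factor receptor of progenitors, read 34022 to 47408 units, and Cd3e, a T cell receptor subunit removed with mature T cells, 120 to 325. Not every marker of mature cells was that low. The related subunit genes Cd3g and Cd3d read 489 to 739 and 181 to 825 units. Cd5, a T cell surface protein, read 3095 to 4646 units and Itgam, a myeloid integrin, 321 to 690. Probes of 3 Y-linked genes, which female mice lack, read 94.5 to 310 units and serve below as a mark of background.

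None of the cascade genes passed the test for a difference between genotypes. Of the 54, 36 lay in the brighter 50% of probes and were tested with limma among 8444 genes; 0 of the 36 passed at an adjusted p under 0.05. Over all tested genes 0% passed as higher and 0.118% as lower in the null arrays. The smallest adjusted p of a member was 0.085, for the phosphatase gene Dusp8, whose signal was 2.94-fold lower in the null arrays. At an unadjusted limma p under 0.05, 3 members were higher (Map3k3, Map3k5 and Map4k4) and 4 lower (Dusp1, Dusp8, Dusp16 and Map4k5), 8.33% and 11.1% of those tested. The corresponding shares of all tested genes were 9.65% and 6.83%. With the array lot as a replicate block these counts were 8 and 5, with 0 past the adjusted threshold, and the shares of all genes were 13.3% and 11%. Without null array 1 the counts were 0 and 1, the 1 being Dusp8, and the shares of all genes 4.8% and 3.23%.

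Both null arrays lay above both wild-type arrays for 11 of the 36 tested members, or 30.6%, against 22.6% of all tested genes. Both null arrays lay below both wild-type arrays for 9 members, or 25%, against 23.2%. A log2 difference of at least 1 in both lots was seen for 0 members in the higher direction (3.26% of all genes) and for 1, Dusp8, in the lower (2.2%). The median absolute log2 difference was 0.425 over the members and 0.278 over all tested genes. The members also differed more between lots, with a median gap of 0.325 between the 2 within-lot differences against 0.241 over all genes.

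**Figure D1:**
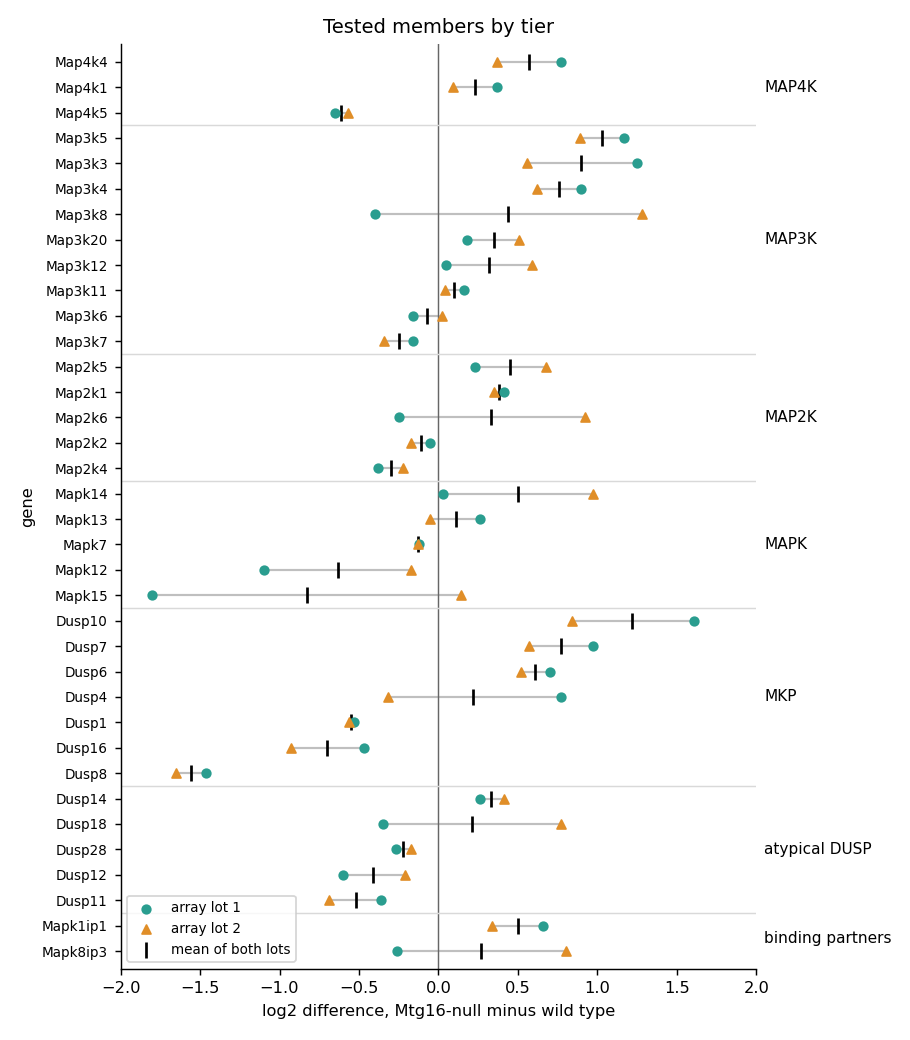
Log2 difference in signal, Mtg16-null minus wild type, for the 36 tested members (vertical axis, grouped by tier). Circles are array lot 1, triangles array lot 2, bars the mean of both and grey lines join the lots; the sign was the same in both lots for 28 of the 36 (77.8%, against 70.5% of all tested genes), and Dusp8 lay below -1 in both.

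By tier, the medians of the tested members lay between -0.22 and 0.38, and every tier except the binding partners held members of both signs. The median log2 difference was 0.23 for the 3 MAP4K genes, 0.35 for 9 MAP3K genes, 0.33 for 5 MAP2K genes and -0.13 for 5 MAPK genes. It was 0.22 for 7 MKP genes, -0.22 for 5 atypical DUSPs and 0.38 for 2 binding partners. Over all 8444 genes it was -0.02, with the middle 50% of genes between -0.27 and 0.29. Lot by lot, the tier medians were 0.37 and 0.09 for MAP4K, 0.16 and 0.56 for MAP3K, and -0.05 and 0.35 for MAP2K. They were -0.12 and -0.05 for MAPK, 0.70 and -0.32 for MKP, and -0.35 and -0.17 for the atypical DUSPs. The MAP2K and MKP medians thus had opposite signs in the 2 lots. Of the MAP3K genes 7 of 9 had a positive difference, as did 47.9% of all tested genes. Over all members the median was -0.01 in lot 1 and 0.24 in lot 2.

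**Figure D2:**
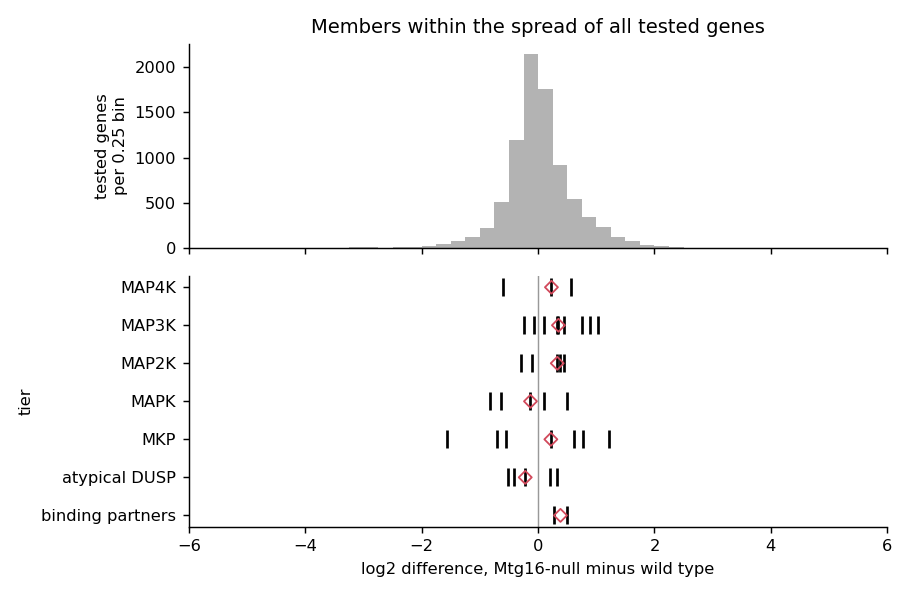
Top: number of tested genes per bin of log2 difference (Mtg16-null minus wild type), 8444 genes. Bottom: each tested member as a bar, by tier, with the tier median as a diamond; apart from Dusp8 at -1.56 and Dusp10 at 1.22, the members lie within the body of the distribution, whose 5th and 95th percentiles are -0.87 and 1.07.

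Among the MAP4K genes, which sit at the top of the cascade and feed mainly the JNK arm, the 3 members differed in direction. Map4k4 (HGK), a kinase that activates the JNK arm, read 1246 and 1534 units in wild type and 1979 and 2128 in the null arrays, 1.48-fold higher (adjusted p = 0.287). Map4k5 (GCKR or KHS) read 6518 and 5913 units in wild type and 4164 and 3975 in the null arrays. That is 1.53-fold lower, by 0.65 in lot 1 and 0.57 in lot 2 on the log2 scale (adjusted p = 0.227). For neither gene did the genotypes overlap. Map4k1 (HPK1), the family member expressed mainly in blood cells, read 39168 and 44064 units in wild type and 50490 and 46782 in the null arrays (log2 difference 0.23, 95% interval -0.27 to 0.72).

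The MAP3K genes decide which arm a signal enters, and here the higher values were those of Map3k5, Map3k3 and Map3k4. Map3k5 (ASK1), activated by oxidative stress and acting on p38 and JNK, read 2260 and 2143 units in wild type and 5073 and 3961 in the null arrays. It was 2.04-fold higher, by 1.17 in lot 1 and 0.89 in lot 2 on the log2 scale (adjusted p = 0.132). The value ran from 0.85 to 1.2 with an array left out. Map3k3 (MEKK3), which acts on the ERK5 arm among others, read 2425 and 3819 units in wild type and 5760 and 5631 in the null arrays. It was 1.87-fold higher (adjusted p = 0.256), and the log2 difference of 0.90 was 0.58 without wild-type array 1. Map3k4 (MEKK4), a kinase activated by Gadd45 proteins, read 324 and 640 units in wild type and 604 and 986 in the null arrays. It was higher in each lot, by 0.90 and 0.62, but the genotypes overlapped across lots (adjusted p = 0.511). With an array left out its log2 difference of 0.76 ran from 0.27 to 1.25. With the array lot as a replicate block the adjusted p was 0.133.

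The other tested MAP3K genes gave smaller or discordant values. Map3k7 (TAK1), which relays cytokine and Toll-like receptor signals, had a log2 difference of -0.25 (95% interval -1.03 to 0.54). Map3k11 (MLK3), a mixed-lineage kinase of the JNK arm, had one of 0.10 (-0.42 to 0.62). Map3k20 (ZAK), a sensor of ribosome stress, had 0.35, Map3k12 (DLK) 0.32 and Map3k6 (ASK2) -0.07. Map3k8 (TPL2), which couples Toll-like receptors to ERK, read 911 and 327 units in wild type and 691 and 795 in the null arrays. Its within-lot differences were -0.40 and 1.28, so its mean of 0.44 carried no common direction.

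**Figure D3:**
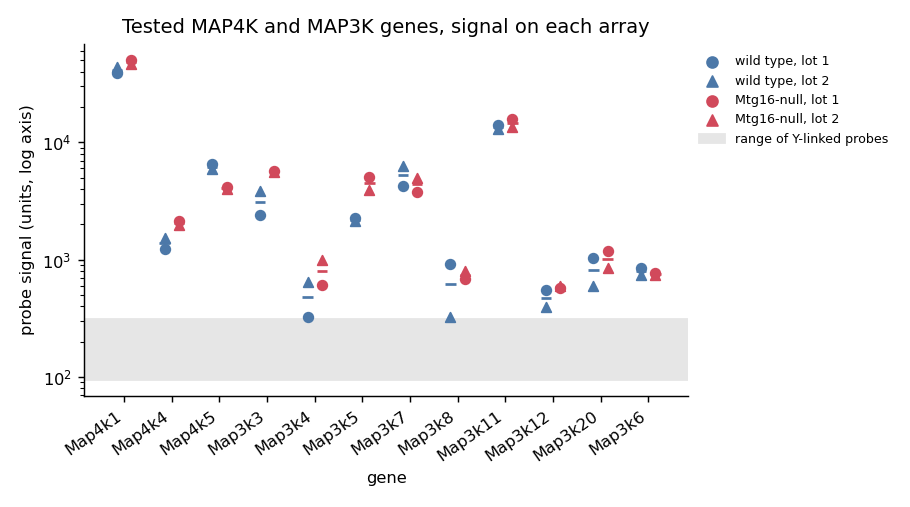
Probe signal on each array (log axis) for the tested MAP4K and MAP3K genes; circles are lot 1, triangles lot 2, blue wild type, red Mtg16-null, and short lines the mean of 2 arrays. The null arrays lie above the wild-type arrays for Map4k1, Map4k4, Map3k3, Map3k5 and Map3k12 and below them for Map4k5; the grey band marks the Y-linked range, 94.5 to 310 units.

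The MAP2K genes encode the kinases that phosphorylate MAP kinases directly, and none reached an unadjusted limma p under 0.05. Map2k1 (MEK1), of the ERK arm, read 13375 and 14556 units in wild type and 17788 and 18501 in the null arrays, 1.3-fold higher (adjusted p = 0.40). Its partner Map2k2 (MEK2) read 57916 and 64897 units in wild type and 55968 and 57797 in the null arrays. Its log2 difference was -0.11 with a 95% interval from -0.59 to 0.37. For Map2k1 both null arrays lay above the wild-type arrays, and for Map2k2 both lay below. Map2k4 (MKK4), which acts on JNK and p38, read 3780 and 3649 units in wild type and 2913 and 3140 in the null arrays, 1.23-fold lower (adjusted p = 0.497). Map2k5 (MEK5), the activator of ERK5, read 2859 and 2141 in wild type and 3346 and 3434 in the null arrays, 1.37-fold higher (adjusted p = 0.429). Map2k6 (MKK6), of the p38 arm, had within-lot differences of -0.25 and 0.92.

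Of the MAP kinases themselves, 5 were bright enough to test and none stood apart by the limma test. Mapk14 (p38 alpha), the main p38 isoform of most cells, read 4913 and 3129 units in wild type and 5023 and 6109 in the null arrays. Within lot 1 it differed by 0.03 and within lot 2 by 0.97 on the log2 scale (adjusted p = 0.512). Mapk13 (p38 delta) had a difference of 0.11 and Mapk7 (ERK5) one of -0.13, with 95% intervals of -0.40 to 0.62 and -0.62 to 0.37. Mapk12 (p38 gamma) read 559 and 547 units in wild type and 261 and 488 in the null arrays. Mapk15, an atypical ERK, read 897 and 743 in wild type and 258 and 817 in the null arrays. In both cases null array 1 was the low one. Without it the log2 differences were -0.18 for Mapk12 and 0.00 for Mapk15, against -0.63 and -0.83 with all arrays.

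The MKPs spanned the widest range of differences among the tested members of any tier, from -1.56 to 1.22. Dusp8, a phosphatase selective for JNK and p38, read 2151 and 2450 units in wild type and 783 and 778 in the null arrays. Both null arrays read about the same, far below both wild-type arrays. The log2 difference was -1.56 (SE 0.18, 95% interval -2.04 to -1.07), with -1.46 and -1.65 in the 2 lots and -1.65 to -1.46 with an array left out. The limma p was 8.20e-04 and the adjusted p 0.085, and over the alternatives in which it was tested the adjusted p ran from 0.0593 to 0.491. The difference lay at percentile 1.31 of all tested genes.

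The other phosphatases of the JNK and p38 arms did not share one direction. Dusp16 (MKP-7), which acts on JNK, read 6470 and 8558 units in wild type and 4687 and 4503 in the null arrays. It was 1.62-fold lower, by 0.47 and 0.93 in the 2 lots (adjusted p = 0.257). Without wild-type array 2 its log2 difference was -0.49. Dusp10 (MKP-5), which acts on p38 and JNK, read 571 and 1270 units in wild type and 1737 and 2273 in the null arrays. It was 2.33-fold higher, with log2 differences of 1.61 and 0.84 (adjusted p = 0.314). The wild-type arrays differed widely from each other, and leaving out the first gave 0.65 and leaving out the second 1.80. So 2 of these 3 phosphatase genes read lower in both null arrays and the third read higher.

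Of the MKPs that act in the nucleus and are induced by the signals they end, Dusp1 (MKP-1) and Dusp4 (MKP-2) were tested. Dusp1 read 7665 and 8980 units in wild type and 5296 and 6090 in the null arrays, 1.46-fold lower. Its differences in the 2 lots were -0.53 and -0.56 (adjusted p = 0.298). Dusp4 read 270 and 574 units in wild type and 460 on each null array, with within-lot differences of 0.77 and -0.32, so no direction was shared.

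The cytoplasmic phosphatases that are selective for ERK, Dusp6 (MKP-3) and Dusp7 (MKP-X), had like patterns over the arrays. Dusp6 read 2800 and 4890 units in wild type and 4552 and 6994 in the null arrays. Dusp7 read 2132 and 4376 in wild type and 4185 and 6502 in the null arrays. Lot 2 was brighter than lot 1 in both genotypes, so the genotypes overlapped, while within each lot the null array was the higher. The log2 differences were 0.70 and 0.52 for Dusp6 and 0.97 and 0.57 for Dusp7. With an array left out the mean difference ran from 0.21 to 1.01 for Dusp6 and from 0.25 to 1.29 for Dusp7. With the array lot as a replicate block the limma p was 0.0207 for Dusp6 and 0.0224 for Dusp7, against 0.192 and 0.163 without it, and the adjusted p 0.144 and 0.146. The related Dusp9 (MKP-4) was too dim to test, at 262 and 171 units in wild type and 476 and 339 in the null arrays, with wild-type signals inside the Y-linked range.

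**Figure D4:**
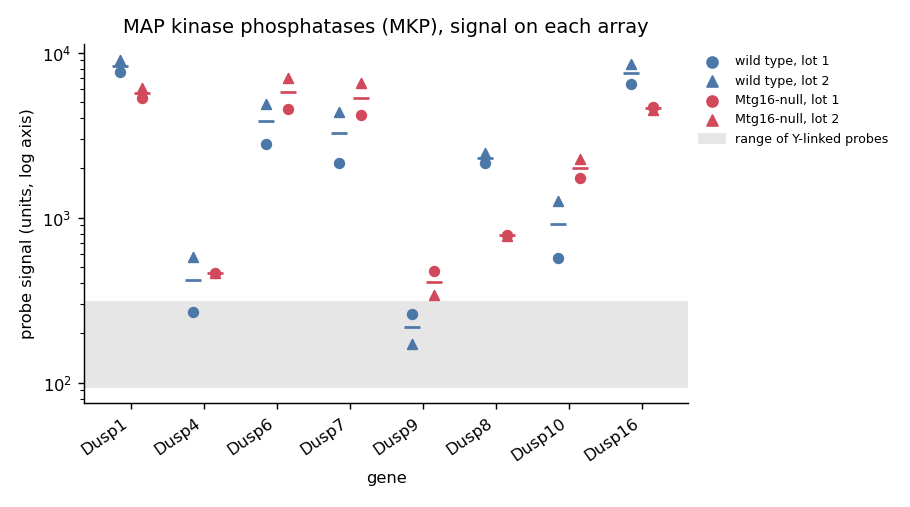
Probe signal on each array (log axis) for the 8 MKP genes, ordered by inducible nuclear, ERK-selective and JNK and p38 phosphatases; colours give the genotype (blue wild type, red Mtg16-null), circles lot 1, triangles lot 2 and short lines the mean of 2 arrays. Dusp8 reads 2151 and 2450 units on the wild-type arrays and 783 and 778 on the null arrays, Dusp9 and Dusp10 lie higher and Dusp1 and Dusp16 lower in the null arrays, and Dusp6 and Dusp7 shift with both lot and genotype.

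The sequence just before the start site is shown for Dusp8, the member with the smallest p, for Dusp1 and Dusp16, the other MKP genes that read lower in both null arrays, for Dusp10, which read higher, and for Map3k5, the MAP3K gene with the smallest limma p. Each is the 250 bases before the RefSeq start, 5′ to 3′ in the direction of the gene, from the mouse build GRCm38.p6. They lie at chr7:142095285-142095534 on the minus strand, chr17:26508473-26508722 on the minus strand, chr6:134792629-134792878 on the minus strand, chr1:184034131-184034380 on the plus strand and chr10:19934276-19934525 on the plus strand. Capitals mark matches on either strand to the motifs searched: the E boxes CAGCTG and CACCTG, bound by E proteins, which are partners of ETO family corepressors; TGACGTCA, the cyclic AMP response element (CRE); TGANTCA of AP-1; TGTGGT of RUNX; AGATAA of GATA factors; and CCGGAAG of ETS factors.
Dusp8: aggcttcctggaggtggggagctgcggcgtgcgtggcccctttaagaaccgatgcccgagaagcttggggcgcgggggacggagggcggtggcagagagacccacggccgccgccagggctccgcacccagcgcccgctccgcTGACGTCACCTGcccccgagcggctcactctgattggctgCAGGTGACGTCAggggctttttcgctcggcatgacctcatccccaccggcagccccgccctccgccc
Dusp1: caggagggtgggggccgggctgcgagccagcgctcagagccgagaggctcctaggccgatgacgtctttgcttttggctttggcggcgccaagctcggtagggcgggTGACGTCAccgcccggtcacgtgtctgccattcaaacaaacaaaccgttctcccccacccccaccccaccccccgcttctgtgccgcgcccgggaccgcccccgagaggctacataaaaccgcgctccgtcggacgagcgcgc
Dusp16: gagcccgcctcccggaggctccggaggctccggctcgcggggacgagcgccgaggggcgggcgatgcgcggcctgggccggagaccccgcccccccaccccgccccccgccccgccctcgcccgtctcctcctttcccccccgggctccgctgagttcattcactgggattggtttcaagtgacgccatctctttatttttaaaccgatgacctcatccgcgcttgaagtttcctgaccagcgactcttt
Dusp10: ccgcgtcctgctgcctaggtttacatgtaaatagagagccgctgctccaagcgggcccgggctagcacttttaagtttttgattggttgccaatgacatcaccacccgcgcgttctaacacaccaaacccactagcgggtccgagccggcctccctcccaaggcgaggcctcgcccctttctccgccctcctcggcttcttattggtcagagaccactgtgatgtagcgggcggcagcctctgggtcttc
Map3k5: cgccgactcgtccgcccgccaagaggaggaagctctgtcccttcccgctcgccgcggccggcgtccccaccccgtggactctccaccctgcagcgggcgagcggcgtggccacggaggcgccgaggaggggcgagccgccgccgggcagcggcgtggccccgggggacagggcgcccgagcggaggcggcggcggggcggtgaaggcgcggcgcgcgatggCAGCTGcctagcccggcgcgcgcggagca

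The Dusp8 window holds the CRE and the E box CACCTG fused, 1 time in each orientation. The run TGACGTCACCTG spans bases 107 to 96 before the start and its reverse complement CAGGTGACGTCA bases 67 to 56, the CRE and the E box sharing 2 letters in each. This run was found, on either strand, in 5 of 32851 promoter windows of this length, or 0.015%, of which 1 belonged to a member, Dusp8 itself. The run was taken from the Dusp8 window after it was seen, and any run of 12 letters is rare. The share therefore tests nothing about Dusp8. The Dusp1 window holds a CRE at bases 143 to 136 before the start and no searched E box. Map3k5 has an E box CAGCTG at bases 29 to 24 before the start, and the Dusp16 and Dusp10 windows hold none of the motifs searched.

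Promoter windows were found for 41 of the 54 members, 53 windows in all. Some genes have several windows, such as Dusp13, and those of Mapk7 overlap, so windows are not independent and a site can count more than once. The CRE was in 3 of the 53 windows (5.66%, those of Dusp1, Dusp8 and Mapk10) against 1.55% of all windows, the E box CACCTG in 15 (28.3% against 17.2%) and CAGCTG in 11 (20.8% against 13%). In the 39 windows of tested members the CRE was in 2, CACCTG in 9 and CAGCTG in 10. The AP-1, RUNX, GATA and ETS motifs were in 2, 4, 2 and 4 of the 53. The shares in all windows were 6.75%, 14.0%, 9.99% and 6.91%. Member windows were richer in G and C, with a median of 62.8% against 52.4%, and the part of base composition in these shares was not tested. A match is a run of letters and shows no binding.

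The atypical DUSPs lack the domain by which MKPs dock onto MAP kinases, and several act on other substrates. Dusp11 (PIR1), which removes phosphates from RNA, read 19441 and 18501 units in wild type and 15162 and 11502 in the null arrays, 1.44-fold lower (adjusted p = 0.361). Dusp12 read 7850 and 6779 units in wild type and 5161 and 5841 in the null arrays, 1.33-fold lower (adjusted p = 0.411). Dusp14 (MKP-6) read 906 and 940 in wild type and 1088 and 1244 in the null arrays, 1.26-fold higher (adjusted p = 0.47). For these 3 genes the genotypes did not overlap. Dusp28 had a log2 difference of -0.22 and Dusp18 within-lot differences of -0.35 and 0.77, and their arrays overlapped.

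Of the genes that share the stem but encode no kinase or phosphatase of the cascade, 2 were tested. Mapk1ip1 read 6536 and 7054 units in wild type and 10359 and 8936 in the null arrays, 1.42-fold higher (adjusted p = 0.306). Mapk8ip3 (JIP3), a scaffold that links JNK cascades to motor proteins, read 1007 and 422 in wild type and 840 and 732 in the null arrays, with within-lot differences of opposite sign (-0.26 and 0.80).

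The remaining 18 members were among the dimmer 50% of probes and were not tested. They read between 51.7 and 765 units, and for 10 of them every array lay at or below the 310 units of the Y-linked probes. For 6 others the mean of at least 1 genotype lay at or below that mark, and for Dusp3 and Dusp21 neither mean did. The null arrays lay above the wild-type arrays for 5 (Dusp3, Dusp9, Map3k2, Map3k14 and Mapk10) and below them for 1 (Map3k1), and overlapped for 12. Over all 5396 untested genes the null arrays lay above for 17.4% and below for 16.1%. Map3k1 (MEKK1) read 543 and 306 units in wild type and 139 and 293 in the null arrays, with log2 differences of -1.96 and -0.06. Wild-type array 1 was the highest of its arrays and null array 1 the lowest. Map3k14 (NIK), the kinase of the non-canonical NF-kappaB pathway, read 88.3 and 103 in wild type and 150 and 234 in the null arrays, all within or below the background range. The 2 probes of Mapk10 (JNK3) averaged 217 and 200 units and gave log2 differences of 0.78 and 0.54 for the brighter and 0.07 and 0.17 for the other. Mapk4 (ERK4), an atypical MAP kinase, read 81.2 and 142 in wild type and 186 and 93.4 in the null arrays, and Mapk11 (p38 beta) 194 and 88.4 against 153 and 141. Sizes of differences at these levels are not resolved from background.

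Other genes of the pathway were taken from 7 lists of 115 genes, of which 87 had a probe and 71 were tested. By limma 0 of the 71 passed the adjusted threshold, and 4 were higher and 5 lower at an unadjusted p under 0.05. The shares over all tested genes were 9.65% and 6.83%. Their median log2 difference was 0.02. By list, the medians ran from -0.07 for receptor-side adaptors and Ras GTPases to 0.16 for other phosphatases of MAP kinases. The 5 tested genes of Raf kinases and ERK scaffolds lay between -0.31 and 0.15, and of the 8 Ras and ERK inhibitors, such as the Spry and Spred genes, 0 reached an unadjusted p under 0.05.

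Among the receptor-side genes and the activators of the stress arms, some related genes gave opposite differences. Gadd45b and Gadd45a encode stress-induced proteins that bind and activate Map3k4. Gadd45b read 2896 and 4372 units in wild type and 9915 and 10669 in the null arrays, 2.89-fold higher (adjusted p = 0.113). Gadd45a read 37843 and 48444 in wild type and 22246 and 24633 in the null arrays, 1.83-fold lower (adjusted p = 0.181). Neither gene's genotypes overlapped. The third family member, Gadd45g, had a log2 difference of -0.06, with 0.10 and -0.21 in the 2 lots (adjusted p = 0.931). Of the Rasgrp family of exchange factors, Rasgrp2 was 2.51-fold higher (adjusted p = 0.208). Rasgrp3 read 538 and 1165 units in wild type and 110 and 481 in the null arrays, a null mean within the Y-linked range (adjusted p = 0.422). Rac2, a small GTPase of blood cells, was 1.75-fold higher, and the adaptor gene Gab1 1.86-fold lower, with adjusted p of 0.223 and 0.13. Tab3, a partner of the kinase encoded by Map3k7, was 1.55-fold lower (adjusted p = 0.263), and Grb2, the adaptor that brings the exchange factor Sos to receptors, 1.3-fold higher (adjusted p = 0.411).

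Downstream of the MAP kinases, Mapkapk3, a kinase activated by p38, was 1.88-fold higher, with log2 differences of 0.79 and 1.03 (adjusted p = 0.33). Elk3, an ETS factor phosphorylated by MAP kinases, read 2582 and 5500 units in wild type and 6172 and 10635 in the null arrays (adjusted p = 0.396). Jun, the AP-1 subunit phosphorylated by JNK, read 2105 and 2414 in wild type and 1530 and 1531 in the null arrays, 1.47-fold lower (adjusted p = 0.263). Ddit3 (CHOP), a stress-induced factor phosphorylated by p38, was 1.53-fold lower (adjusted p = 0.247). Ppp2ca, a catalytic subunit of protein phosphatase 2A, which dephosphorylates MEK and ERK among many substrates, read 5242 and 6293 units in wild type and 22673 and 24309 in the null arrays (adjusted p = 0.0744). It had the largest difference of the 71 pathway genes tested, 2.03 on the log2 scale. The other genes named by the ranking were Mef2c, Rasa3, Rps6ka5, Ssh3 and Mob4, with positive log2 differences of 0.66, 0.64, 0.53, 0.53 and 0.07. On the negative side were Iqgap1, Mknk2, Mapkapk5, Ppm1d, Styx and Lamtor3, between -0.31 and -0.09, and the adjusted p of these 11 genes was 0.343 or more.

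**Figure D5:**
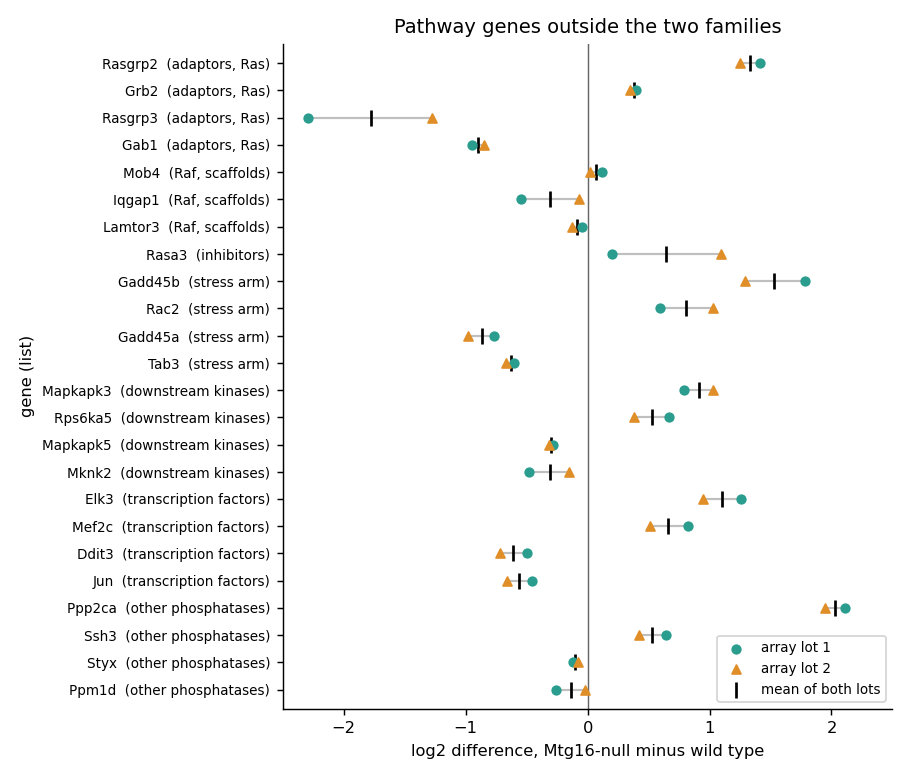
Log2 difference in signal, Mtg16-null minus wild type, for up to 2 genes per direction from each of the 7 pathway lists, taken by the smaller of the 2 within-lot differences. Circles are lot 1, triangles lot 2 and bars the mean; Ppp2ca at 2.03 and Gadd45b at 1.53 lie farthest to the right and Rasgrp3 at -1.78 farthest to the left, and none passed limma at an adjusted p under 0.05.

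Summed signals of blood cell marker lists differed between the genotypes, and by limma 7 of the 13 late neutrophil genes, such as Ltf and Camp, were lower at an adjusted p under 0.05. No gene of the other lists passed. The counts of non-overlapping genes below stand beside 22.6% of all tested genes with both null arrays above and 23.2% with both below. The 13 late neutrophil genes with a probe summed to 1371921 and 1487110 units in wild type and 160184 and 150543 in the null arrays, and 11 of the 13 tested had both null arrays below. Erythroid genes summed to 3089245 and 2204350 units in wild type and 1544592 and 1358650 in the null arrays, with both null arrays below for 12 of the 12 tested. Early granulocyte genes summed to 1897885 and 1883831 in wild type and 4395105 and 3762959 in the null arrays, with both null arrays above for 8 of 10. Megakaryocyte, stem and multipotent, B lineage and monocyte lists were also higher in sum, with both null arrays above for 7 of 8, 6 of 9, 5 of 6 and 5 of 6 tested genes. Against that, both null arrays lay below for Vwf of the megakaryocyte list and Cd163 of the monocyte list. The B cell gene Ms4a1, not tested, read 1444 and 1767 units in wild type and 68 and 143 in the null arrays. The T and natural killer cell list summed to 71260 and 74218 units in wild type and 244224 and 213932 in the null arrays. Most of that sum was Nkg7, a granule membrane protein gene, at 66360 and 66507 and at 237264 and 206814 units. Both null arrays were above for 2 of the 5 tested genes of that list, and Cd4 stayed within the Y-linked range on all arrays. Sums of the mast cell, basophil and eosinophil list and of the stroma and endothelium list were higher too. Both null arrays lay above for 4 of 8 and 3 of 5 tested genes and below for 3 of 8 and 1 of 5. In the first of these lists they lay above for the eosinophil genes Prg2, Prg3 and Epx and for Hdc, a mast cell and basophil gene. They lay below for the other mast cell and basophil genes Mcpt8, Cpa3 and Fcer1a, and Ms4a2 was lower within each lot. The mast cell and basophil genes thus did not share one direction. Prg2 alone read 107959 and 92995 units in wild type and 484706 and 398761 in the null arrays. The part of these shifts in the differences of Dusp8, Map3k5 and the other members was not tested. In bulk RNA, fewer cells of a type and less RNA per cell cannot be told apart.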

How the data were processed

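RNA of lineage-negative marrow was labelled with digoxigenin and hybridised to single-colour Applied Biosystems arrays, per the labels' protocols. The authors deposited linear intensity for each probe, and the sorted values of the 4 arrays differ by at most 0.286%, so the authors had brought them to a common distribution. For scanner software, background correction and detection calls, the method was not given in the sources used here. Symbols came from the platform annotation: 14411 of 33012 probes had 1 symbol, 247 several and 18354 none. All 54 members were matched by Entrez identifier to RefSeq of GRCm38.p6.

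Values below the 1st percentile, 75.8 units, were raised to it, log2 was taken, 1 probe per gene was kept by mean signal, and the upper 50% of probes, ranked on the mean of log2 signal, gave 8444 genes. Genotypes were compared with limma 3.58.1 (R 4.3.3; lmFit, eBayes; 2 residual and 2.11 prior degrees of freedom), with genotype as the only term and Benjamini-Hochberg adjustment over all genes. Each difference subtracts wild type from null, and 95% intervals use the moderated standard error. An exact permutation of 2 against 2 arrays cannot go below p = 0.333. The replicate number is the array lot, per the series text, so lots pair the arrays; deviations of same-lot arrays from their group means correlated at 0.50 across genes. The fit was tested on simulated data. Figures used matplotlib 3.10.9.

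Named genes were members with the same sign in both lots (up to 15 per direction), all MAPK, MAP2K and MKP genes, 2 per direction of each pathway list, and Cbfa2t3. Other names, such as Map3k8, Map3k6, Dusp18, Mapk8ip3 and the untested members, were chosen after their values were seen. Members, lists and tests were chosen with earlier results of these data known. The number of arrays limits the precision. Alternatives were a replicate block, the filter, floor, scaling, probe rule, variance trend, single lots and leaving out each array.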

Additional observations from a re-analysis of the deposited data

How the results depend on the processing

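No member passed the adjusted limma threshold under any alternative in which it was tested. With the array lot as a replicate block, 0 of all genes passed (10 in the fit without it, 2055 against 1392 at an unadjusted p under 0.05), and 8 members were higher at an unadjusted p under 0.05. When dim probes were kept, 0 genes passed and the MAPK median was 0.14. In that fit 1514 of 13840 genes had an unadjusted limma p under 0.05, with 3 of the 54 members higher and 1 lower. With the brightest 25% of probes 291 genes passed, but 16 members were tested, without Dusp8 and Map3k5. Of 4967 genes 1022 had an unadjusted limma p under 0.05, with 2 of the 16 members higher and 4 lower. The medians were -0.19 for MAP4K, 0.10 for MAP3K, 0.14 for MAP2K, 0.19 for MAPK, -0.47 for atypical DUSPs and 0.00 over all members. With a variance trend 295 genes but 0 members passed the adjusted threshold. At an unadjusted p under 0.05 there were 1454 of 8444 genes, with 5 members higher and 5 lower. Leaving out an array gave 0 genes each time (678 to 1437 at an unadjusted p under 0.05), between 0 and 7 members higher and between 1 and 3 lower. The medians then ran from 0.04 to 0.56 for MAP3K, -0.03 to 0.41 for MAP2K, -0.20 to -0.01 for MAPK, -0.32 to 0.77 for MKP and 0.03 to 0.22 over all members. Within lot 1 the medians were 0.37 for MAP4K, 0.16 for MAP3K, -0.05 for MAP2K and -0.01 over all members. Within lot 2 they were 0.09 for MAP4K, 0.56 for MAP3K and -0.32 for MKP.

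When an array was left out, 11 of 36 member differences turned sign or reached 0, and 25, these included, moved by over 1.5 times. The ranges were -0.32 to 0.77 for Dusp4, -0.12 to 0.78 for Map2k6, -1.66 to 0.00 for Mapk15, -0.05 to 0.74 for Map3k20, -0.53 to 0.03 for Map3k7, -0.02 to 0.22 for Map3k11, -0.01 to 0.22 for Mapk13, -0.20 to 0.62 for Dusp18, -0.18 to 0.04 for Map3k6, -0.30 to 1.18 for Map3k8 and -0.36 to 0.89 for Mapk8ip3. These fits assume that the lone array of its genotype varies like the other genotype. The cause of these shifts was not tested. No floor, cyclic loess, equal array medians and the mean of probes moved no count of members by over 1.5 times and no tier median beyond its spread within genotypes.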

Other observations

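For the pathway genes Egr1, Fosb and Rras the array lots differed in sign, and null array 1 was the lowest of the 4 arrays. Egr1, an immediate early transcription factor gene, read 772 and 665 units in wild type and 346 and 865 in the null arrays, or -1.16 in lot 1 and 0.38 in lot 2 on the log2 scale. Fosb, an AP-1 subunit gene, read 551 and 535 in wild type and 160 and 760 in the null arrays. Rras, a Ras family GTPase gene, read 1118 and 432 in wild type and 214 and 503 in the null arrays, with differences of -2.38 and 0.22. Fos, another AP-1 subunit gene, differed by 1.73 in lot 1 and 0.22 in lot 2, with 638 and 1612 units in wild type and 2121 and 1880 in the null arrays. These genes were chosen after their values were seen, and none passed limma (adjusted p of 0.45 for Fos, 0.787 for Egr1, 0.784 for Fosb and 0.525 for Rras).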
